A study of Mus musculus with 4 samples.

Results

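The proximal tubule of the kidney takes filtered protein back up from the urine and recovers most filtered solute. The results concern 9 genes of that segment in control and Sall1 knockout embryonic mouse kidneys: Lrp2, Cubn, Amn, Dab2, Pdzk1, Hnf4a, Spp2, Fut9 and Fxyd2. They were followed through every array feature that carries a RefSeq transcript of a member gene, which gave 13 features out of 55681 on the array, for 9 of the 20018 genes that could be named. Total RNA of whole kidneys at E13.5 was hybridised to 4 one-colour arrays. The 2 control samples and the 2 Sall1 knockout samples came from a hybrid of 129 and C57BL/6 mice, received tamoxifen at E12.5 and were collected 24 hours later. The labels name Sall1CreER, a tamoxifen-inducible Cre, in the treatment of all 4 samples, while CreER appears in the titles of the knockout samples alone and the control titles read flox. The Sall1 knockout and the presence of CreER can therefore not be told apart. No label states whether a sample was 1 embryo or a pool, so the tests measure the spread between these samples, which may be technical. In whole kidney RNA, fewer cells of a type and less RNA per cell cannot be told apart either.

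Megalin, the product of Lrp2, and cubilin, the product of Cubn, are large receptors at the apical membrane that bind filtered proteins and carry them into clathrin-coated pits. Cubilin has no transmembrane stretch and depends on amnionless, the product of Amn, to reach the surface, while Dab2 is the adaptor that links megalin to the clathrin machinery. Pdzk1 encodes a scaffold with PDZ domains that holds transporters beneath the brush border, and Hnf4a encodes a nuclear receptor that drives the mature programme of proximal tubule cells and of hepatocytes. The nephron progenitors of the embryonic kidney, in which Sall1 is expressed, give rise to the tubule, which is only beginning to form at this age.

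The promoters of Lrp2 and Pdzk1 are shown because these genes stand for the receptor and for the member with the largest difference. Each run covers 250 bases before to 50 bases after a transcript start, is taken from RefSeq (GRCm38.p6), and is written 5′ to 3′ on the strand of the gene. Capitals mark CAAAGTCCA, a motif bound by HNF4 proteins.
Lrp2: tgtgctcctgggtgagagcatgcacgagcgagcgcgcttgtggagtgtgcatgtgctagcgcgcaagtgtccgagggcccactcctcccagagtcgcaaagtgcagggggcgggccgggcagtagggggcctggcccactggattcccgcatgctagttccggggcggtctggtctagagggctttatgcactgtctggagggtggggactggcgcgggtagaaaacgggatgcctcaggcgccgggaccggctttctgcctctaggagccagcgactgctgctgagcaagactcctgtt
Pdzk1: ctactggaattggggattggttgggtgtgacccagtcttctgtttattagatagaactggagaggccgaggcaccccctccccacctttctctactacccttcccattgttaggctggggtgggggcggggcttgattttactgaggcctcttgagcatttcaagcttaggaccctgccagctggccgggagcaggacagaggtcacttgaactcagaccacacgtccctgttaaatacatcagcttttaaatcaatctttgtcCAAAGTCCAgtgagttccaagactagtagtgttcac

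The Lrp2 window lies at chr2:69585980-69586279 on the minus strand and the Pdzk1 window printed at chr3:96829815-96830114 on the plus strand. Of the 9 genes, 7 matched the promoter table, with 10 windows between them; Fut9 and Fxyd2 did not match. With both strands read, CAAAGTCCA was found in 1 of the 10 windows, the Pdzk1 window printed, where it begins at position 15 of the transcript. The window of the other Pdzk1 start (chr3:96831921-96832220, plus strand) does not hold it. It is held by 0.475% of the 32851 promoter windows of this length. It is not in the Lrp2 window. Of the motifs read, chosen with the expression values known, 4 are given here, and none contains another. CAAAGGTCA and TATAAA were in none of the members' windows, against 0.478% and 13.6% of all windows, and GGGCGG was in 4 of 10, against 35.7%. A match describes letters and was not tested as a binding site.

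Signals are given as log2 of the scanner's processed signal divided by the array's own 75th percentile, so that 0 is the level of a fairly bright feature and each step of 1 is a doubling. With 2 arrays a group, precision is limited by their number. The scale compares the same feature between arrays, not one gene with another. The 75th percentile was 597 and 547.5 signal units in the controls and 534 and 521 in the knockouts, and between 60.6% and 64.2% of spots were well above background. Sall1, the targeted gene, read 1.79 and 1.81 in the controls and 1.03 and 1.07 in the knockouts, 1.68-fold lower (log2 difference -0.75 ± 0.056 SE, n = 2 per group, limma adjusted p = 0.126). The knockout arrays thus carried less Sall1 signal without losing it. No label says whether this feature falls within the deletion.

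All 9 genes were measured above background on all 4 arrays by the feature used, and the mean of the knockouts was above that of the controls for each. In 7 of them, all but Cubn and Amn, both knockout arrays lay above both control arrays, which 21.5% of the 25083 genes and unnamed sequences tested did in this direction. The difference reached 1.5-fold without overlap for 4 genes, Pdzk1, Hnf4a, Spp2 and Fut9, against a background of 2.48%, and 2 genes did so with normexp background correction. In limma's fit 7 of the 9 were higher at an unadjusted p under 0.05, against 6.77% of all tested, and none was lower, against 5.93%. Without Sall1 knockout replicate 1 this count was 3 of the 9. After Benjamini-Hochberg adjustment no member passed 0.05, nor did any of the 25083 (0%), and the smallest adjusted p among all tested was 0.0724. The median log2 difference, knockout minus control, was 0.41 over the 9 genes and -0.01 over all tested. Of all tested, 46.4% were higher in the knockouts. The 9 members were chosen with earlier results of these data known. Their counts beside the shares of all tested are therefore a description, not a test. The shares of 2.48% and 6.77% come from the main fit, and none was counted for normexp or with an array left out.

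**Figure D1:**
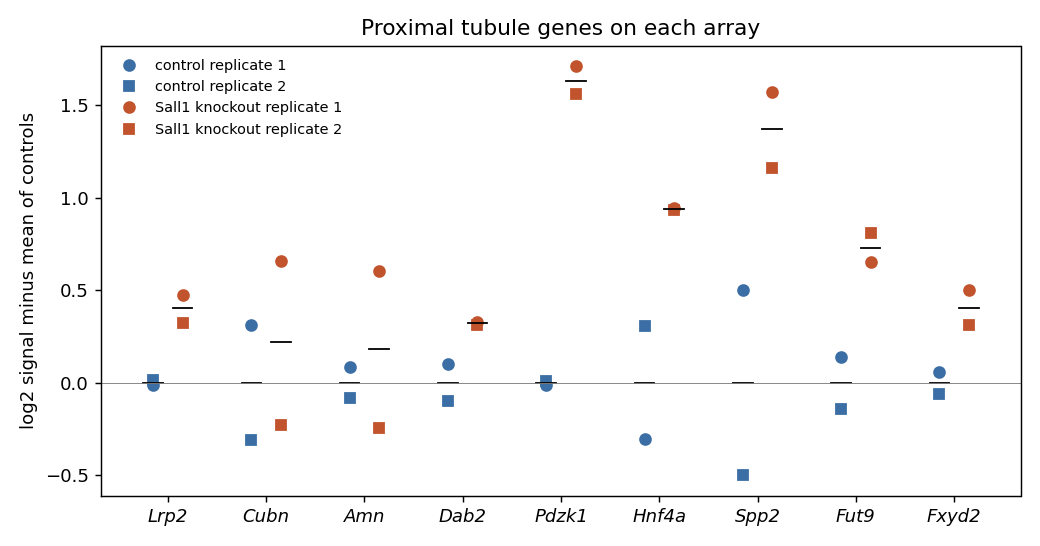
Log2 signal of the 9 genes on each array, set relative to the mean of the controls of the same gene (y axis, log2 units). Blue marks are control and orange marks Sall1 knockout arrays, circles replicate 1 and squares replicate 2, and short black lines are group means; the groups overlap for Cubn and Amn and are apart for the other 7.

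Among the receptors, Lrp2 read -0.89 and -0.86 in the controls and -0.40 and -0.55 in the knockouts. Both knockout arrays were above both controls, by 1.32-fold on average (log2 difference 0.41 ± 0.077 SE, n = 2 per group, limma adjusted p = 0.272). In scanner units this was 322 and 301.2 against 405.7 and 356.9. The gap between the nearest arrays of the groups, 0.31, was larger than the spread within either group, 0.029 in the controls and 0.15 in the knockouts.

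Its partner receptor behaved differently from array to array. Cubn read -2.59 and -3.21 in the controls and -2.24 and -3.13 in the knockouts, so that the groups overlapped. The log2 difference of 0.22 ± 0.40 SE was smaller than the fall of 0.62 from one control to the other and of 0.89 between the knockouts (limma adjusted p = 0.826). The other Cubn feature was not well above background on the arrays of either group. The difference was -0.22 without Sall1 knockout replicate 1, and leaving out control replicate 2 gave -0.09, so no direction can be given for Cubn.

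Amn, the chaperone of cubilin, was near the lower end of what the arrays measured, with 30.5 and 24.88 scanner units in the controls and 39.07 and 21.24 in the knockouts. On the log2 scale these were -4.29 and -4.46 against -3.77 and -4.62. The highest and the lowest of the 4 values were both knockout arrays. The difference of 0.18 ± 0.32 SE did not exceed the spread (limma adjusted p = 0.82), and it was -0.24 without Sall1 knockout replicate 1.

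For both Cubn and Amn, knockout replicate 2 read lower than knockout replicate 1, by 0.89 and 0.84 on the log2 scale, more than in any other member. Lrp2 differed between the same arrays by 0.15.

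Dab2, the adaptor, read 1.21 and 1.01 in the controls and 1.44 and 1.42 in the knockouts. The groups did not overlap and the difference was 1.25-fold (log2 0.32 ± 0.091 SE, n = 2 per group, limma adjusted p = 0.348). Dab2 is also made by macrophages and other phagocytic cells. Of the 15 macrophage markers listed, 14 were measured, and 11 of the 14 were higher in the knockouts at an unadjusted p under 0.05 and none lower, with a median log2 difference of 0.51 and 0 past the adjusted threshold. Csf1r, the receptor for macrophage growth factor, read 1.97 and 1.88 in the controls and 2.43 and 2.21 in the knockouts (0.39 ± 0.10 SE, limma adjusted p = 0.329). The log2 differences of Fcgr3, Cx3cr1 and Aif1, also macrophage genes, were 0.57, 0.59 and 0.51. The summed linear level of the list, in units of the 75th percentile, was 9.622 and 8.861 in the controls and 13.72 and 11.65 in the knockouts. No list member that was measured had a lower mean in the knockouts, and the part of macrophages in the Dab2 difference was not tested.

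Other listed genes of the uptake machinery had a median difference near 0 in whole kidney RNA, which does not resolve the cell type. A list of 18 other genes of megalin endocytosis, from ligand chaperone to clathrin adaptors, recycling and lysosome, was measured in full. In limma's fit 1 of the 18 was higher at an unadjusted p under 0.05, none was lower, none passed the adjusted threshold, and the median log2 difference was 0.04. The gene past the unadjusted threshold was Myo6, the motor that moves uncoated vesicles inward, at -3.41 and -3.57 in the controls and -3.11 and -2.86 in the knockouts (0.51 ± 0.12 SE, limma adjusted p = 0.311). Lrpap1, the chaperone of megalin, differed by 0.11 ± 0.062 SE. Rab11a, which marks recycling endosomes, differed by 0.14 ± 0.057 SE and Ocrl, the phosphatase mutated in Lowe syndrome, by 0.12 ± 0.061 SE. Clcn5, the endosomal chloride exchanger mutated in Dent disease, overlapped between the groups (-0.04 ± 0.11 SE).

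Pdzk1, the scaffold, had the largest difference of the 9. It read -2.07 and -2.05 in the controls and -0.35 and -0.50 in the knockouts, or 142 and 132.1 against 417.6 and 368.6 scanner units. The knockout mean was 3.11-fold that of the controls (log2 difference 1.63 ± 0.076 SE, n = 2 per group, limma adjusted p = 0.0819). The groups lay 1.5 apart at their nearest arrays, while the controls differed by 0.02 and the knockouts by 0.14. A second Pdzk1 feature, which was dimmer, read -3.84 and -3.96 in the controls and -2.33 and -2.21 in the knockouts. Its log2 difference was also 1.63, so both features of the transcript gave the same size.

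Pdzk1 passed the threshold under 2 of the 14 alternatives. With a trended and robust prior its adjusted p was 0.000616, where 0.546% of all tested passed in the same direction, and no other member passed. With normexp background correction it was 0.0273, and over the 14 alternatives it ranged from 0.000616 to 0.431, while the log2 difference stayed between 1.25 and 1.71.

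Other brush border genes lay on both sides of 0. Of 21 listed, 17 were measured; 5 were higher with an unadjusted p under 0.05 and 3 lower, 0 passed the adjusted threshold, and the median log2 difference was 0.22. Enpep, aminopeptidase A, read -1.20 and -0.99 in the controls and -0.55 and -0.54 in the knockouts (0.55 ± 0.092 SE, limma adjusted p = 0.242). Dpp4, another membrane peptidase, differed by 0.57 ± 0.096 SE (limma adjusted p = 0.242). The lower genes were Espn, an actin-bundling protein, at -0.39 ± 0.087 SE, Ggt1, which degrades glutathione, at -0.32 ± 0.072 SE, and Ezr, which ties the membrane to actin, at -0.22 ± 0.069 SE. Ezr and Ggt1 are outside the rule for named genes and were chosen after their values were seen, as was Espn. Slc9a3r1, another PDZ scaffold of the brush border, overlapped between the groups (-0.10 ± 0.13 SE). It read 0.15 and 0.33 in the controls and 0.01 and 0.27 in the knockouts. Slc9a3r2, also a PDZ scaffold, did not overlap (0.22 ± 0.068 SE, limma adjusted p = 0.368). Its values were 0.59 and 0.70 in the controls and 0.86 and 0.87 in the knockouts. Slc9a3r2 is outside the rule for named genes and was chosen after its value was seen.

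Listed transporters of the proximal tubule were mostly too dim to compare. Of 27 listed, 11 were measured, and 10 of the other 16 did not stand well above background on a single array, among them Slc9a3, the sodium-proton exchanger that Pdzk1 binds. Of the 11, in limma's fit 4 were higher with an unadjusted p under 0.05 and 2 lower, with 0 past the adjusted threshold and a median of 0.06. Aqp1, the water channel, read -0.41 and -0.42 in the controls and 0.24 and 0.15 in the knockouts (0.61 ± 0.064 SE, limma adjusted p = 0.18). Slc22a6, the organic anion transporter, read -2.92 and -2.87 against -2.30 and -2.45 (0.52 ± 0.077 SE, limma adjusted p = 0.223). Slc7a7, an amino acid exchanger of the basolateral side, went the other way, from 1.59 and 1.56 to 0.89 and 0.83 (-0.72 ± 0.059 SE, limma adjusted p = 0.145). Slc34a1, the phosphate transporter held by Pdzk1, overlapped between the groups (-0.22 ± 0.24 SE).

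**Figure D2:**
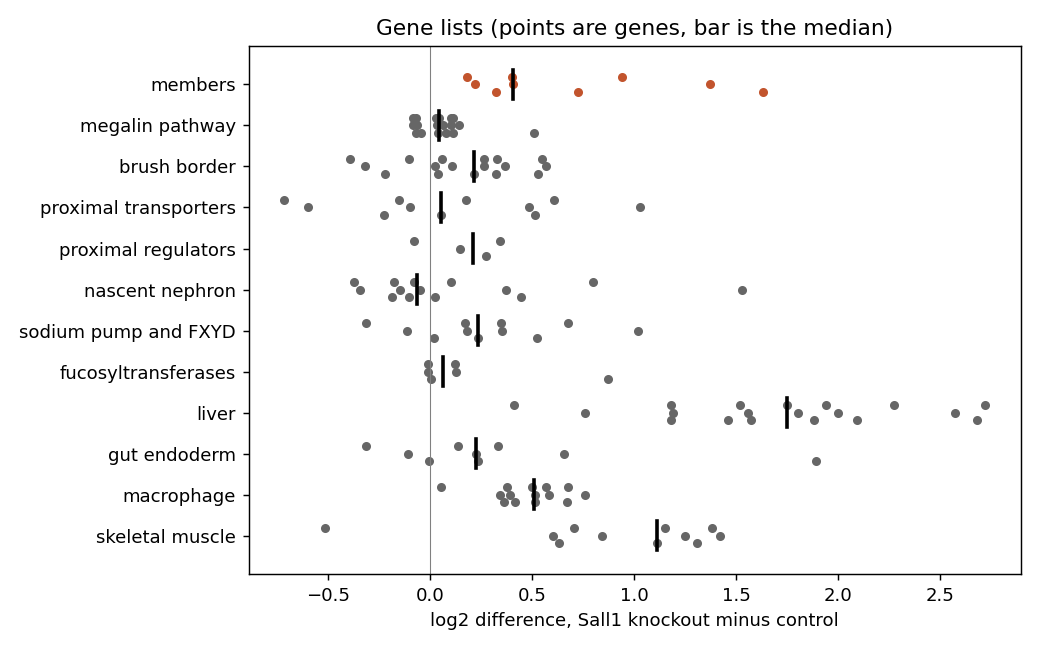
Log2 difference, knockout minus control (x axis), for the measured genes of the lists drawn (grey points) and for the 9 members (orange points). Each point is 1 gene and each black bar is a median. The neuron and glia list (median -0.06) and the fetal kidney list (median -0.27) are not drawn. The member median is 0.41, those of the 4 other proximal tubule lists lie between 0.04 and 0.22, and that of the liver list is 1.75.

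Hnf4a, the regulator, read -1.78 and -1.17 in the controls and -0.53 and -0.54 in the knockouts. The knockout arrays were nearly equal, while the controls were 0.61 apart, which is about as far as the nearest control lay from the knockouts, 0.63. The mean difference was 1.92-fold (log2 0.94 ± 0.23 SE, n = 2 per group, limma adjusted p = 0.321). Its size depended on the control kept: the log2 difference was 0.64 without control replicate 1 and 1.25 without control replicate 2.

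Of 6 other regulators listed, 4 were measured, none passed the adjusted threshold in limma's fit, and the median log2 difference was 0.21. Ppara, a regulator of fatty acid oxidation, overlapped between the groups (0.15 ± 0.10 SE).

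Spp2 encodes secreted phosphoprotein 24, a cystatin-related protein known from liver and bone as well as kidney. It read -3.58 and -4.58 in the controls and -2.51 and -2.92 in the knockouts, or 49.9 and 22.9 against 93.94 and 68.76 scanner units. The groups did not overlap and the means were 2.58-fold apart (log2 1.37 ± 0.40 SE, n = 2 per group, limma adjusted p = 0.355), with the controls 1.0 apart from each other. The log2 difference was 0.87 without control replicate 2 and 1.87 without control replicate 1. With normexp background correction it was 0.58. The reading of 22.9 scanner units in control replicate 2 was, as for Amn, near the lower end of what the arrays measured.

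Hnf4a, Pdzk1 and Spp2 are also made in the liver, and liver genes were higher in the knockout samples. Of 20 liver markers 19 were measured; 16 were higher at an unadjusted p under 0.05 and none lower in limma's fit, 18 were higher by 1.5-fold or more without overlap, 0 passed the adjusted threshold, and the median log2 difference was 1.75. Alb read -2.55 and 0.35 in the controls and 1.39 and 1.77 in the knockouts, Afp 2.41 and 2.97 against 4.35 and 3.96, and Ttr -2.72 and -2.13 against -0.50 and -0.74. Trf, transferrin, differed by 1.18 ± 0.12 SE (limma adjusted p = 0.175). The summed linear level of the list was 15.25 and 24.26 in the controls and 51.43 and 48.39 in the knockouts. Of the 19, 18 were above background on all 4 arrays.

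The controls also differed from each other in liver genes. From control replicate 1 to control replicate 2, 18 of the 19 liver genes were higher, with a median log2 difference of 1.0 and a range from -0.14 to 2.9. Over the same pair of arrays Pdzk1 differed by 0.02, Spp2 by -1.0 and Hnf4a by 0.61. The part of liver RNA in the differences between the groups was not tested.

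**Figure D3:**
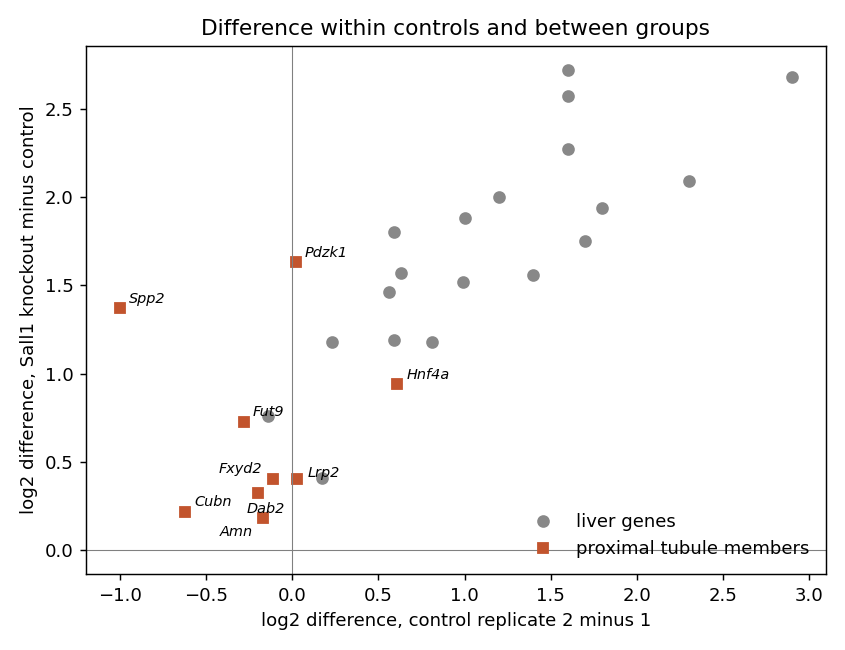
Log2 difference between the controls, replicate 2 minus replicate 1 (x axis), against the log2 difference of knockout minus control (y axis), for 19 liver genes (grey circles) and the 9 members (orange squares). Of the liver genes 18 lie right of 0, while Pdzk1 sits at 0.02, Hnf4a at 0.61 and Spp2 at -1.0.

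Gut endoderm markers, also fixed for tissue carried along at dissection, had a median difference of 0.23 over 9 measured genes, with 1 higher with an unadjusted p under 0.05 and none lower, and 0 past the adjusted threshold in limma's fit. Krt20, Lgals4 and Shh differed by 0.66, 0.24 and 0.33. Of the genes outside the rule for named genes, Fabp1, Fabp2 and Gpa33 differed by 1.89, 0.23 and 0.14. Cdx1, Epcam and Cldn6 went the other way, by -0.31, -0.11 and -0.01. Skeletal muscle genes were higher at a median of 1.11 over 11 measured genes, 5 higher with an unadjusted p under 0.05 and 1 lower, and none past the adjusted threshold. Des, Tnni2 and Tnnt3 differed by -0.52, 0.84 and 0.60. The summed level of the muscle list was 36.54 and 18.33 in the controls and 64.79 and 45.31 in the knockouts. Neuron and glia genes had a median of -0.06 over 12, with 3 lower and none higher at an unadjusted p under 0.05, and 0 past the adjusted threshold (Stmn2 -0.46, Nefl -0.80, Nefm -0.49). The part of muscle, gut and nerve tissue in the members' differences was not tested.

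The labelled tissue was checked with 12 markers of the fetal kidney, all of them measured. In limma's fit none was higher and 7 were lower in the knockouts at an unadjusted p under 0.05, 0 passed the adjusted threshold, and the median log2 difference was -0.27. Six2, the marker of nephron progenitors, read 5.23 and 5.17 in the controls and 4.60 and 4.78 in the knockouts (-0.51 ± 0.090 SE, limma adjusted p = 0.25). Cited1, another progenitor gene, differed by -2.20 ± 0.082 SE (limma adjusted p = 0.0819), Osr1 by -0.86 ± 0.064 SE and Gdnf by -0.69 ± 0.098 SE. Of the markers outside the rule for named genes, Hoxd11, Ret, Wnt11 and Foxd1 differed by -0.39, -0.28, -0.26 and -0.17. Pax2, Gata3, Eya1 and Wt1 had higher means in the knockouts, by 0.18, 0.10, 0.06 and 0.06. Genes of the nascent nephron, the first epithelial stages before the proximal tubule, lay on both sides. Of 14 measured, 3 were higher with an unadjusted p under 0.05 and 3 lower, 0 passed the adjusted threshold, and the median was -0.06. Cdh16, a cadherin of kidney tubules, differed by 0.45 ± 0.084 SE, Irx1, a nephron patterning factor, by 1.53 ± 0.31 SE, and Fgf8, a growth factor of the renal vesicle, by -0.34 ± 0.067 SE.

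Fut9 encodes the fucosyltransferase that makes the Lewis X epitope. It read -3.72 and -4.0 in the controls and -3.21 and -3.05 in the knockouts, or 45.4 and 34.23 against 57.66 and 62.86 scanner units. The groups did not overlap and were 1.66-fold apart (log2 0.73 ± 0.13 SE, n = 2 per group, limma adjusted p = 0.253). The other Fut9 feature was not well above background on the arrays of either group. With normexp background correction the log2 difference was 0.39. The reading of 34.23 scanner units in control replicate 2 lay within the range of the Amn readings.

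Of 9 other fucosyltransferases 6 were measured, and in limma's fit none was higher or lower at an unadjusted p under 0.05 and 0 passed the adjusted threshold, with a median of 0.06. Fut4, which can make the same epitope, overlapped between the groups at -1.29 and -1.43 in the controls and -1.41 and -1.33 in the knockouts (-0.01 ± 0.079 SE). Fut1 was above background on 1 of the 2 control arrays and on both knockouts, and its log2 difference was 0.87 ± 0.37 SE. Pofut2 and Fut8 differed by 0.12 and 0.13.

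Fxyd2 encodes the gamma subunit that tunes the sodium pump of the basolateral membrane. It read 0.05 and -0.07 in the controls and 0.49 and 0.30 in the knockouts, which did not overlap (1.32-fold, log2 0.40 ± 0.097 SE, n = 2 per group, limma adjusted p = 0.318). A second Fxyd2 feature read -0.50 and -0.69 against 0.03 and -0.14, a difference of 0.54 in the same direction.

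Genes of the sodium pump and of the FXYD family were more often higher than lower. Of 11 measured, 7 were higher with an unadjusted p under 0.05 and 1 lower in limma's fit, 0 passed the adjusted threshold, and the median was 0.24. Fxyd4, the regulator known from collecting ducts, read 0.20 and 0.06 in the controls and 1.26 and 1.04 in the knockouts (1.02 ± 0.11 SE, limma adjusted p = 0.184). Fxyd7 differed by 0.68 ± 0.075 SE and the beta subunits Atp1b2 and Atp1b1 by 0.35 ± 0.055 SE and 0.35 ± 0.12 SE. Fxyd6 was the 1 lower gene, at 6.33 and 6.34 in the controls and 5.96 and 6.08 in the knockouts (-0.31 ± 0.070 SE); it was chosen after its value was seen.

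**Figure D4:**
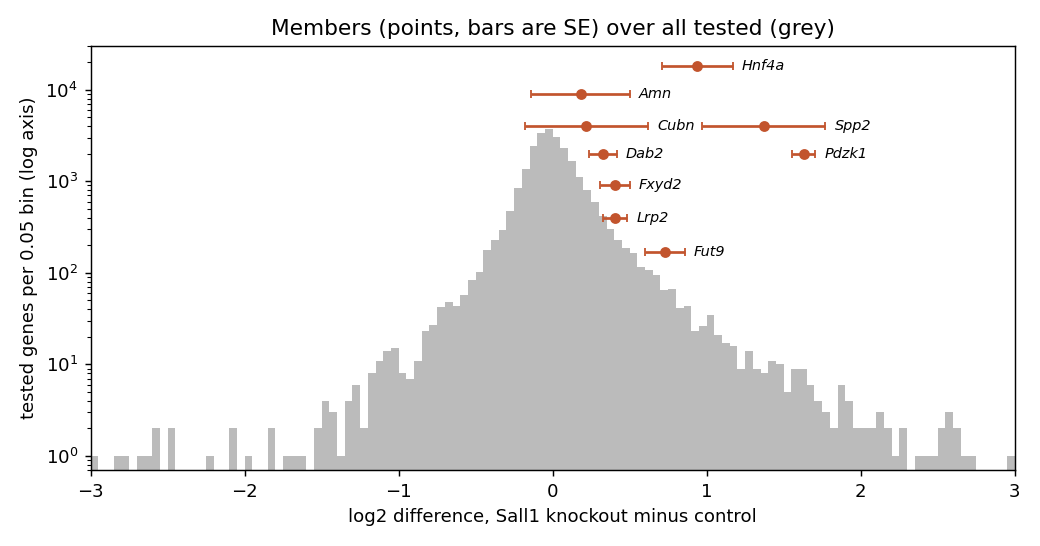
Number of the 25083 tested genes and unnamed sequences by log2 difference, knockout minus control (x axis; counts on a log axis, in grey), with the 9 members as orange points and their standard errors as bars, set at arbitrary heights; differences beyond 3 are not drawn. The members lie between 0.18 and 1.63, all right of the median of all tested at -0.01.

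By a distance that counts the size of a difference as well as its shape, the members were not all near one another. Likeness was measured as the root mean square distance between log2 values centred on each gene's mean over the 4 arrays, among the 15089 other named genes. The genes nearest to Lrp2 were Tmem191c, Zdhhc14 and Bst2, at distances of 0.0178, 0.0185 and 0.0199, and the members nearest to it were Fxyd2 at rank 57 and Dab2 at rank 480. The genes nearest to Pdzk1 were Slitrk6, Cngb3 and Iqcf4, at 0.119, 0.146 and 0.166, followed among the members by Spp2 at rank 85, Hnf4a at rank 97 and Fut9 at rank 200. Lrp2 stood at rank 703 of the list around Pdzk1. With 4 arrays in 2 groups the measure mostly sorts genes by the size of their difference.

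Of the other 72 genes in the proximal tubule lists, 50 were measured. In limma's fit 11 (22%) were higher with an unadjusted p under 0.05 and 5 lower, against 6.77% and 5.93% of all tested. Of the 50, 0 passed the adjusted threshold, and the median log2 difference was 0.07, against -0.01 over all tested. These lists cover uptake, brush border, transport and regulation, and hold no member. They too were chosen with earlier results of these data known. The uptake list, with a median of 0.04, makes up 18 of the 50.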

How the data were processed

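Cy3-labelled cRNA from 0.25 µg of total RNA per sample was measured on 4 one-colour Agilent arrays (design 028005), read with Feature Extraction 10.7.3.1, per the file headers. The processed signals in the deposited scanner files are linear intensities, corrected for background but not scaled between arrays, per the file headers; the flag for well above background comes from the same deposited files. The authors' value table repeats these intensities (100% of 55249 single-spot probes equal within 1%), with column medians of 52.62, 47.3, 48.1 and 46.1; its scale is linear, it is not centred, and it served as an alternative. All arrays shared 1 slide and 1 scan.

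Signals were divided by each array's 75th percentile and set to log2. Control spots and outlier marks (147 to 174 per array) were left out, and no spot was saturated. A probe was kept if both arrays of either group had it well above background (34264 of 55681). RefSeq accessions named 26413 probes and left 29268 unnamed; each gene took its brightest probe. In all, 15090 genes and 9993 unnamed sequences were tested with limma 3.58.1 in R 4.3.3 (default prior, 1.79 prior and 2 residual degrees of freedom, two-sided) with Benjamini-Hochberg adjustment over all 25083. The script was tested on simulated data.

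Groups came from the genotype label; replicates were numbered in order. Members and gene lists were chosen with earlier results of these data known. Genes named are the 9 members, Sall1, the up to 3 genes of each list with the smallest unadjusted p, a set of 17 pathway and marker genes whatever their values, and the 3 nearest in profile to Lrp2 and Pdzk1. Some of these genes are not reported here. Alternatives were normexp correction (offset 50), quantile and median scaling, no filter, a filter on all 4 arrays, averaged probes, retained marked spots, a trended robust prior, array weights, the value table and leaving out each array.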

Additional observations from a re-analysis of the deposited data

How the results depend on the processing

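Over 14 alternatives, 123 of 126 member differences kept their direction; the other 3 were of Cubn, which ranged from -0.22 to 0.66 when each array was left out, and Amn, from -0.24 to 0.60. The count of members past an adjusted p of 0.05 was 1 with normexp background correction and 1 with the trended robust prior, against 0, and in both it was Pdzk1; normexp called 19 and 22 of all tested higher and lower, and the trended prior 137 and 164, against 0 and 0. The cause was not tested. Members at least 1.5-fold apart without overlap numbered 2 with normexp, against 4. With 1 array left out, a lone array overlaps less readily, so that count is not given. For this count and the next, the share of all tested was taken in the main fit alone. Members past an unadjusted p of 0.05 numbered from 3, without Sall1 knockout replicate 1, to 7, and the median from 0.33 to 0.65, the highest without Sall1 knockout replicate 2; a lone array of a group was assumed to vary like the other group. Sall1 was lower in each alternative (-0.79 to -0.72), past the threshold in 2 (adjusted p 0.00143 to 0.507). The median of all tested stayed between -0.05 and 0.03. No paired analysis was possible because the labels give no shared replicate numbers. The features used for the 9 members were well above background on all 4 arrays; the other Cubn and Fut9 features were not on any.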
